A study of Mus musculus with 22 samples.

Results

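The Ly6 genes followed across 22 mouse pancreatic tumours were Ly6c2, Ly6i, Ly6c1, Ly6a, Ly6e and Ly6d. They were chosen by symbol, as 6 rows of a deposited table of 17966 genes, with earlier results of the same data known: Ly6c2 and Ly6i led the rises there. For Ly6c2 and Ly6i the levels and fold changes against untreated and beta-glucan tumours are therefore descriptions, given without a p-value. Both are still included where the genes called are counted. All 6 genes passed the filter on low values, a normalized count of at least 10 in at least 5 tumours, as did 14278 genes in all.

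The tumours grew in the pancreas of wild-type mice from implanted PDA.7940B cells, a polyclonal line derived from KPC mice, which develop pancreatic ductal adenocarcinoma. The 4 groups were tumours given both beta-glucan and anti-CD40 (combination, n = 5, doses not given for the pair), tumours given 1 intraperitoneal dose of 0.1 mg of the anti-CD40 antibody FGK45 (n = 6), tumours given 1 intravenous dose of 1.2 mg of beta-glucan (n = 6), and untreated tumours (n = 5). Treated tumours were taken 10 days after treatment. Beta-glucan is a fungal cell wall polysaccharide sensed by Dectin-1 on myeloid cells, and CD40 is an activating receptor of antigen-presenting cells. RNA came from fixed, paraffin-embedded sections, so a value is a sum over every cell type in the section. In such bulk samples, a change in the number of cells of a type and a change in RNA per cell cannot be told apart. The labels do not say that each tumour came from its own mouse, and the spread behind each p-value is that between these samples, which may be technical.

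Ly6 proteins are small cell surface proteins held in the outer membrane by a lipid (GPI) anchor. Many serve as markers of blood cell types, and several are inducible by interferons. Ly6c2 is the main source of the Ly6C antigen that marks classical monocytes. Ly6c1 encodes a nearly identical protein found on endothelium and lymphocytes, and Ly6a encodes Sca-1, a marker of haematopoietic stem cells that also appears on endothelium and on activated lymphocytes. Ly6i is a close relative of Ly6a. Ly6e encodes a widely expressed antigen of immature thymocytes, also known for restricting coronavirus entry, and Ly6d encodes ThB, a marker of early B lineage cells and of stratified epithelium.

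The 6 genes lie on chromosome 15 within an interval of 349.9 kb (GRCm38, GENCODE M21). From low to high coordinate the order is Ly6d (74762056 to 74763620, minus strand), Ly6e (74955051 to 74959905, plus strand), Ly6i (74979534 to 74983430, minus strand), Ly6a (74994877 to 74998031, minus strand), Ly6c1 (75044018 to 75048830, minus strand) and Ly6c2 (75108158 to 75111970, minus strand). No other annotated gene overlaps any of them. Ly6c1 and Ly6c2 are the pair whose separation the results turn on, since one changed by far more than the other, so the first 300 bases of their coding sequences are shown. They lie, interrupted by introns, within chr15:75108639-75111667 for Ly6c2 and chr15:75045498-75048511 for Ly6c1, both on the minus strand of GRCm38 (GENCODE transcripts). They are printed 5′ to 3′, with capitals at the 7 positions where they differ.
Ly6c2: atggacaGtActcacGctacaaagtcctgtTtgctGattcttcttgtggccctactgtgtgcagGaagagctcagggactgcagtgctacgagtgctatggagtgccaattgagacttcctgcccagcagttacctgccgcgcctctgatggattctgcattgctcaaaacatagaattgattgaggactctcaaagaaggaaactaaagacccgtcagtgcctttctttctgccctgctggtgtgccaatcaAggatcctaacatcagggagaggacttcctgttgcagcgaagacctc
Ly6c1: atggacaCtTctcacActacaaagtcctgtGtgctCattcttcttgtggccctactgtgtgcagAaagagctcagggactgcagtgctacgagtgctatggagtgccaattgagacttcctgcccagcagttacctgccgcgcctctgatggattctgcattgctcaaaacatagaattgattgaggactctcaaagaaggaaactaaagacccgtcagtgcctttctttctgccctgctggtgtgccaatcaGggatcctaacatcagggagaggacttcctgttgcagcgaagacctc
Over the whole coding sequence the pair were identical at 387 of 396 bases, or 97.7%. Ly6a and Ly6i were 86.4% identical, and the pairs among Ly6a, Ly6c1, Ly6c2 and Ly6i ranged from 81.5 to 97.7%. Pairs that include Ly6e or Ly6d ranged from 45.7 to 52.2%.

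The libraries were primed at the poly(A) end of transcripts, so the last bases of each transcript decide how far reads can be assigned. Over the last 300 bases Ly6c1 and Ly6c2 were 93.5% identical. That window holds 251 overlapping stretches of 50 bases, a length set for this search, which covered the transcripts of all annotated genes. For Ly6c2 176 occurred in no other gene, and likewise 176 for Ly6c1, while 75 were shared by both. For Ly6a, Ly6i, Ly6e and Ly6d all 251 stretches occurred in no other annotated gene. Reads in the shared stretches could be split or dropped between Ly6c1 and Ly6c2, so the values of both are uncertain to that extent; how the authors counted such reads is not given in the sources used here.

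The 250 bases before the transcript start are shown for the same pair, since their changes differed in size. They are from RefSeq on GRCm38.p6, which had entries for 2 of the 6 genes: chr15:75111972-75112221 for Ly6c2 and chr15:75048838-75049087 for Ly6c1, both on the minus strand. Capitals mark bases with no identical partner in the alignment of the pair.
Ly6c2: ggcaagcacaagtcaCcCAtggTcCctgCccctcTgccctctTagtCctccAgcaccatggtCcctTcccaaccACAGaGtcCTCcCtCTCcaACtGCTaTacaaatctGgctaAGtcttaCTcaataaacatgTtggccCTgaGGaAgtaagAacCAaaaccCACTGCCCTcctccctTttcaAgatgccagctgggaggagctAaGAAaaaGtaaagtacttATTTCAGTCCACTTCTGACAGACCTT
Ly6c1: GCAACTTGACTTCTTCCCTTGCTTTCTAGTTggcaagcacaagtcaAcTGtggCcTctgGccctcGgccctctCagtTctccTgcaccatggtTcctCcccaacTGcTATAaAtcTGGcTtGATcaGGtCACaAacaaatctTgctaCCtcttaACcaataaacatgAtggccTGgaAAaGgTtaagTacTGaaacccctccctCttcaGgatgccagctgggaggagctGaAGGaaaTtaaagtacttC
The alignment held 164 identical bases in 228 columns, or 71.9%, with 52 mismatches and 12 gap columns. For a description, 3 motifs were searched on both strands. The interferon-stimulated response element (GAAA, any 2 bases, GAAA) had 0 matches in either window and occurred in 2.98% of 32851 promoter windows of this length. The gamma-activated site TTCNNNGAA likewise had 0 matches in either and occurred in 7.02%. The core GAGGAAGT of sites for PU.1, a myeloid transcription factor, had 1 match before Ly6c2 and 0 before Ly6c1, and occurred in 2.44%. A match is a match of letters only, and its absence says only that those letters are not in this window.

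Recovered read depth was 12.2 to 18.8 M in combination tumours, 6.33 to 21.2 M in anti-CD40 tumours, 7.13 to 8.74 M in beta-glucan tumours and 7.38 to 9.34 M in untreated tumours. The share of reads from 23 acinar (digestive enzyme) genes, which mark normal pancreas in the section, was 0.524 to 31.3%, 0.552 to 58.7%, 0.487 to 15.3% and 0.0171 to 15.8% in the same group order. Epithelial markers, which the carcinoma shares with normal pancreas, were present: the summed normalized count of 12 such genes was 4199 to 9934 in combination tumours, 4759 to 25625 in anti-CD40 tumours, 11644 to 29681 in beta-glucan tumours and 36168 to 47933 in untreated tumours. Values below are normalized counts, which are reads that the authors scaled by a size factor per tumour; a log2 fold change is a difference of group means of log2(normalized count + 1), given with its standard error, and a fold is 2 to that power.

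Ly6c2, the classical monocyte antigen, was low in untreated tumours and abundant in every tumour that received anti-CD40. Its normalized counts were 1727, 2500, 1092, 5281 and 2289 in combination tumours 1 to 5. In anti-CD40 tumours the lowest was 747, the median 1519 and the highest 2857, and in beta-glucan tumours 58.0, 148 and 350. In untreated tumours 1, 2, 3, 5 and 6 they were 13.3, 22.4, 11.4, 17.2 and 68.9. Every tumour with anti-CD40, alone or combined, lay above every beta-glucan tumour, and untreated tumour 6, the highest of its group, lay above the lowest beta-glucan tumour. Against untreated tumours the log2 fold change was 6.67 ± 0.48 (102-fold) for the combination, 6.09 ± 0.46 (68.0-fold) for anti-CD40 and 2.70 ± 0.46 (6.49-fold) for beta-glucan. Against beta-glucan tumours the combination differed by 3.97 ± 0.46 (15.6-fold).

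Ly6i, the relative of Ly6a, had the same order of groups with a different spread. Its normalized counts were 1569, 1095, 999, 1126 and 1232 in combination tumours 1 to 5. In anti-CD40 tumours the lowest was 265, the median 346 and the highest 2131, and in beta-glucan tumours 50.4, 164 and 362. In untreated tumours they were 19.1, 9.5, 3.5, 4.6 and 18.8. No treated tumour overlapped an untreated one. The 5 combination tumours lay close together, with a coefficient of variation of 18.3%, whereas the anti-CD40 group had one of 103%, 1 tumour at 2131 standing above the other 5, which lay between 265 and 816. The log2 fold change against untreated tumours was 6.88 ± 0.57 (118-fold) for the combination, 5.66 ± 0.54 (50.5-fold) for anti-CD40 and 3.81 ± 0.54 (14.0-fold) for beta-glucan. Against beta-glucan tumours the combination differed by 3.07 ± 0.54 (8.42-fold).

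**Figure D1:**
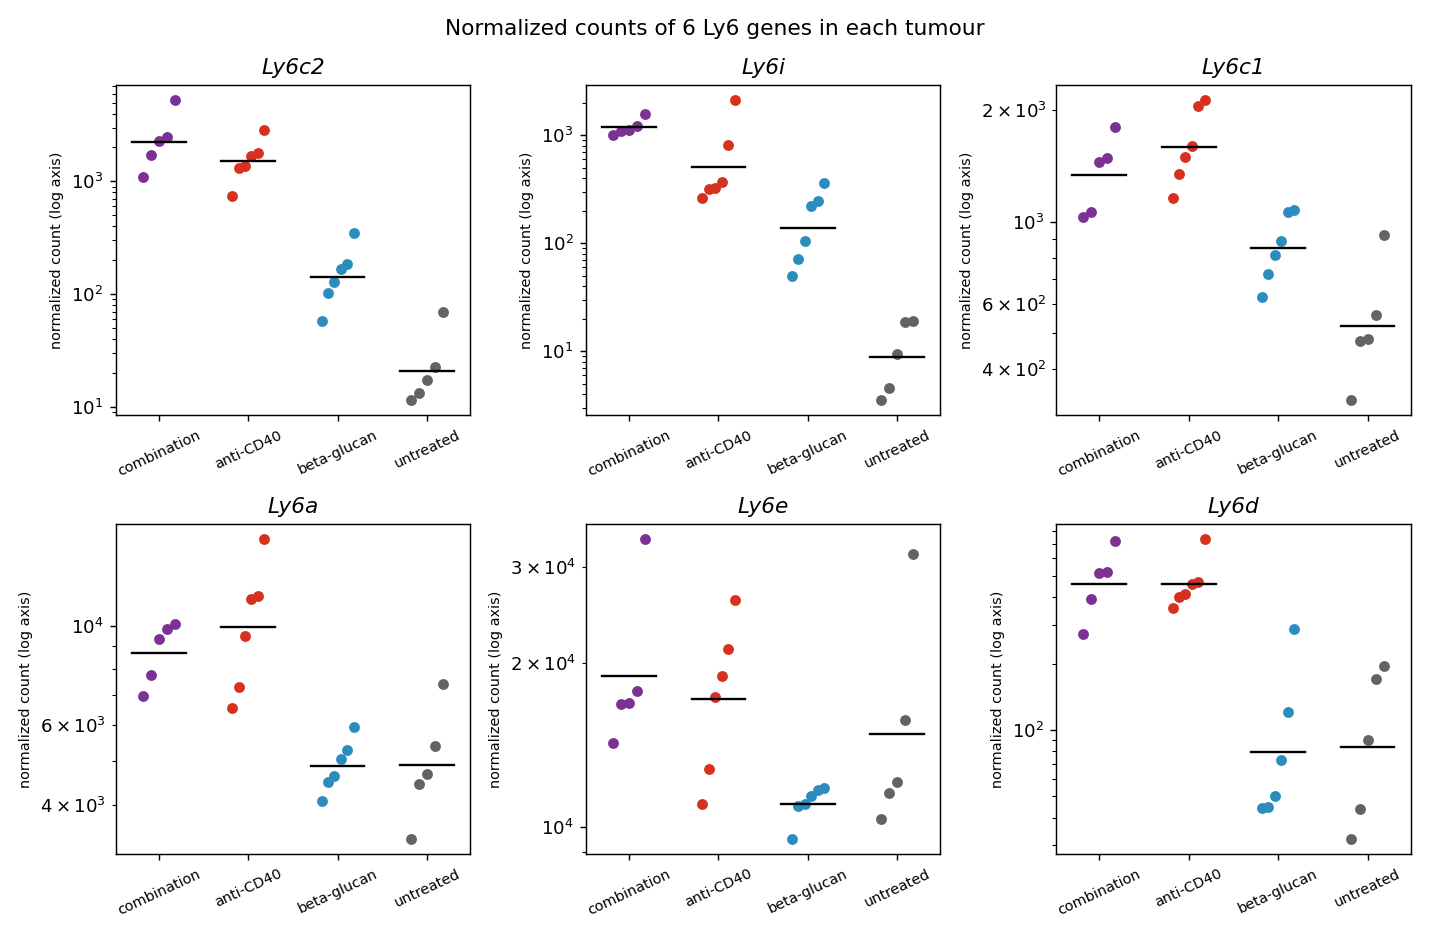
Normalized counts (log axis) of each of the 6 genes, 1 panel a gene and 1 point a tumour, with a line at the geometric mean of the combination (n = 5), anti-CD40 (n = 6), beta-glucan (n = 6) and untreated (n = 5) groups. For Ly6c2 and Ly6i every combination and anti-CD40 tumour lies above the highest untreated tumour, at 68.9 and 19.1, and the same holds for Ly6c1 and Ly6d. For Ly6a this holds for 4 of 5 combination and 4 of 6 anti-CD40 tumours, and for Ly6e each treated group overlaps the untreated group.

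Ly6c1, the near-copy of Ly6c2, was higher after anti-CD40, alone or combined, by a far smaller factor. Its normalized counts were 1444, 1032, 1798, 1485 and 1060 in combination tumours 1 to 5. In anti-CD40 tumours the lowest was 1160, the median 1546 and the highest 2127, and in beta-glucan tumours 626, 848 and 1073. In untreated tumours they were 477, 330, 483, 559 and 918. All 5 combination and all 6 anti-CD40 tumours lay above the highest untreated tumour, while the beta-glucan group overlapped it. Ly6c1 rose 2.55-fold in combination tumours (1.35 ± 0.24, adjusted p = 0.000104) and 3.04-fold in anti-CD40 tumours (1.60 ± 0.23, adjusted p = 2.45e-05; limma, Benjamini-Hochberg over 14278 genes, as in all such tests here). With beta-glucan alone the difference of 0.70 ± 0.23 did not pass the 0.05 threshold (adjusted p = 0.0683). Without untreated tumour 6, the highest of its group, it was 0.90 and passed (adjusted p = 0.00797), and without beta-glucan tumour 4 it was 0.78 and passed (adjusted p = 0.0451). Ly6c1 did not pass in the combination against beta-glucan either (0.65 ± 0.23, adjusted p = 0.0543), where 3 of 5 combination tumours lay above every beta-glucan tumour. It passed there when untreated tumour 2 or 6, beta-glucan tumour 3, anti-CD40 tumour 6 or combination tumour 2 was left out, at adjusted p from 0.0247 to 0.0489. It also passed with DESeq2 (adjusted p = 0.0353) and with only the 2 groups in the fit (adjusted p = 0.0278).

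Ly6a, which encodes Sca-1, was higher where anti-CD40 was given. Its normalized counts were 10063, 7766, 9830, 9345 and 6969 in combination tumours 1 to 5. In anti-CD40 tumours the lowest was 6555, the median 10457 and the highest 15591, and in beta-glucan tumours 4071, 4845 and 5935. In untreated tumours they were 4666, 3352, 4441, 5406 and 7413. Untreated tumour 6 was the highest of its group, and 4 of 5 combination and 4 of 6 anti-CD40 tumours lay above it. Ly6a rose 1.78-fold in combination tumours (0.83 ± 0.22, adjusted p = 0.0048) and 2.03-fold in anti-CD40 tumours (1.02 ± 0.21, adjusted p = 0.00136). It also rose in the combination against beta-glucan (0.84 ± 0.21, adjusted p = 0.0098), where all 5 tumours lay above every beta-glucan tumour. With beta-glucan alone the difference was -0.00 ± 0.21 (adjusted p = 0.998), with a 95% interval of -0.44 to 0.43.

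The calls of Ly6a and Ly6c1 were lost under equal totals, and some of those of Ly6a also with acinar genes left out of the totals. When values were rescaled to equal totals, which moves the median of all genes by -0.56 for anti-CD40 and -0.45 for the combination against untreated, the Ly6a difference was 0.38 for the combination (adjusted p = 0.506) and 0.44 for anti-CD40 (adjusted p = 0.428). For Ly6c1 it was 0.90 (adjusted p = 0.101) and 1.02 (adjusted p = 0.066). With acinar genes left out of those totals the Ly6a difference for the combination was 0.66 and did not pass (adjusted p = 0.0677). Ly6a with anti-CD40 still passed there, at 0.83 (adjusted p = 0.0316). So did Ly6c1, at 1.18 for the combination (adjusted p = 0.00263) and 1.41 for anti-CD40 (adjusted p = 0.000968). Relative to the shifted median under equal totals, Ly6a stood at 0.83 and 0.99 and Ly6c1 at 1.35 and 1.58 for the combination and anti-CD40. In the combination against beta-glucan the Ly6a call was lost under equal totals, at 0.33 (adjusted p = 0.593), and without acinar genes in the totals, at 0.61 (adjusted p = 0.13).

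Ly6d, the ThB antigen, was several-fold higher in both groups given anti-CD40. Its normalized counts were 391, 520, 271, 515 and 718 in combination tumours 1 to 5. In anti-CD40 tumours the lowest was 356, the median 437 and the highest 737, and in beta-glucan tumours 44.1, 61.5 and 288. In untreated tumours they were 89.8, 31.9, 170, 195 and 43.8. All combination and all anti-CD40 tumours lay above the highest untreated tumour, and the highest beta-glucan tumour lay above the lowest combination tumour. Ly6d rose 5.40-fold in combination tumours (2.43 ± 0.48, adjusted p = 0.000411) and 5.40-fold in anti-CD40 tumours (2.43 ± 0.46, adjusted p = 0.000634). It rose by 2.51 ± 0.46 in the combination against beta-glucan (adjusted p = 0.0012), and the difference with beta-glucan alone was -0.08 ± 0.46 (adjusted p = 0.954).

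Ly6e, the broadly expressed antigen, passed the test in no treated group against untreated tumours. Its normalized counts were 16899, 14277, 17790, 33832 and 16865 in combination tumours 1 to 5. In anti-CD40 tumours the lowest was 11026, the median 18136 and the highest 26145, and in beta-glucan tumours 9518, 11233 and 11797. In untreated tumours they were 15743, 12094, 10377, 11584 and 31723. Untreated tumour 6 and combination tumour 4 stood far above their groups, and the beta-glucan group had a coefficient of variation of 7.55%, the lowest of the 24 groups of values of these genes. The log2 fold change was 0.35 ± 0.27 for the combination (adjusted p = 0.347), 0.21 ± 0.26 for anti-CD40 (adjusted p = 0.635) and -0.43 ± 0.26 for beta-glucan (adjusted p = 0.409). Without untreated tumour 6 the combination passed the test, at 0.62 (adjusted p = 0.0433). Under equal totals, which lower all genes alike, both differences that include anti-CD40 changed sign, to -0.10 for the combination and -0.37 for anti-CD40; relative to the shifted median they stood at 0.35 and 0.18, against 0.36 and 0.21 as reported. Ly6e was higher in the combination than in beta-glucan tumours in 5 of 5 tumours (0.78 ± 0.26, adjusted p = 0.0481). It was no longer called when any 1 of 16 of the 22 tumours was left out (adjusted p up to 0.164), nor under equal totals (adjusted p = 0.549), where it stood at 0.76 relative to the shifted median. Acinar reads made up 15.8% of untreated tumour 6 and 31.3% of combination tumour 4, each the highest of its group, and 31.2% of combination tumour 5, whose Ly6e value was 16865. Anti-CD40 tumour 6 had the highest acinar share of its group, 58.7%, and the highest Ly6e there, 26145. Beta-glucan tumour 3 had the highest acinar share of its group, 15.3%, but not the highest Ly6e, at 10966. Over the 22 tumours the within-group correlation of Ly6e with the acinar list did not pass (r = 0.444, permutation p = 0.0983, adjusted p = 0.295, and rho = 0.281, permutation p = 0.26). Without the 2 tumours farthest from the median of the acinar list, r was 0.345. With the acinar level as a covariate the adjusted p of Ly6e in the combination against beta-glucan was 0.167, and without the 4 tumours above 30% acinar reads it was 0.224.

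**Figure D2:**
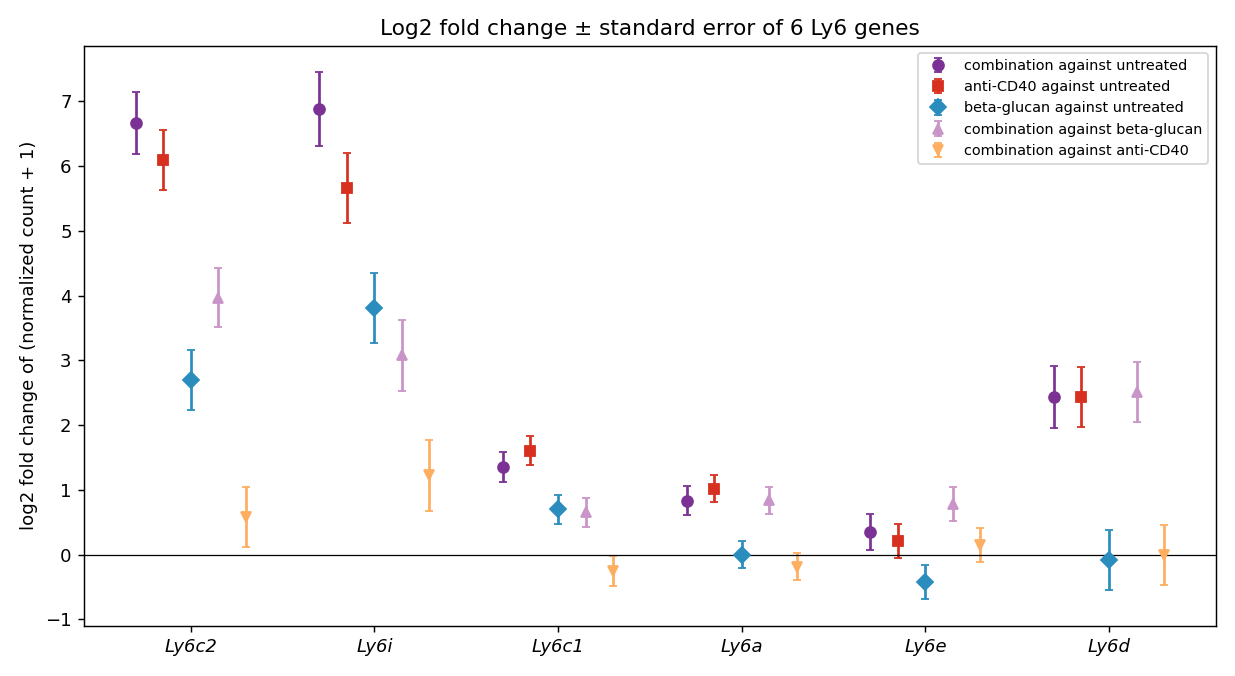
Log2 fold change of normalized count + 1 (points) with standard errors (bars) for each of the 6 genes in 5 comparisons. Ly6c2 and Ly6i reach 6.67 and 6.88 in the combination against untreated, Ly6d 2.43 in both groups given anti-CD40, and the combination against anti-CD40 stays between -0.25 and 1.22 for all 6.

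Counted over the 6 genes, 5 passed the test, all higher, for the combination against untreated, where 34% of all 14278 genes passed, 18.2% higher and 15.8% lower. For anti-CD40 5 passed, all higher, where 18.6% of all genes passed, 11% higher and 7.56% lower. For beta-glucan 2 passed, both higher, where 6.42% of all genes passed, 5.09% higher and 1.32% lower; the 916 genes behind that share were 507 without beta-glucan tumour 5. For the combination against beta-glucan 5 passed, all higher, where 14.1% of all genes passed, 6.49% higher and 7.61% lower. The groups did not overlap, with the group named first higher, for 4 of the 6 genes in the combination, 4 in anti-CD40, 1 in beta-glucan and 4 in the combination against beta-glucan, where this held for 11.7%, 5.03%, 3.98% and 5.68% of all genes. Ly6c2 and Ly6i, picked for their rise, are in each of these counts of genes that passed, and are the 2 counted for beta-glucan. Since the genes were chosen with these contrasts known, nothing is read from those counts. An alternative chosen after seeing the data left out the 4 tumours above 30% acinar reads (anti-CD40 tumours 2 and 6, combination tumours 4 and 5). There 5, 5, 2 and 4 of the 6 genes passed in the same order. Of all 14278 genes 4245, 2706, 1278 and 987 passed.

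The combination was compared with anti-CD40 alone for all 6 genes. Ly6c2 and Ly6i were chosen for rises in earlier results of the same tumours. Their p-values here cannot be taken as independent of that choice and are read as descriptions. Of the 6, 0 passed with limma and 1, Ly6i, had an unadjusted p under 0.05 (0.034), in a comparison where 1.48% of all genes passed, 0.658% higher and 0.826% lower. For 0 of the 6 did the combination lie wholly above anti-CD40, as it did for 0.777% of all genes. The count of genes called, 212, ran from 28 without anti-CD40 tumour 2 to 852 without anti-CD40 tumour 5, so that background rests on single tumours. Ly6i came closest, at 1.22 ± 0.54 (adjusted p = 0.265, 95% interval 0.10 to 2.34). All 5 combination tumours exceeded 5 of the 6 anti-CD40 tumours, and without anti-CD40 tumour 5, at 2131, the difference was 1.63 and passed (adjusted p = 0.0466). Ly6c2 differed by 0.58 ± 0.46 (adjusted p = 0.609, interval -0.38 to 1.53), and by -0.13 without the 4 tumours above 30% acinar reads. Ly6d differed by -0.00 ± 0.46 (unadjusted p = 0.999, interval -0.95 to 0.95), Ly6a by -0.19 ± 0.21 (interval -0.62 to 0.25), Ly6c1 by -0.25 ± 0.23 (interval -0.72 to 0.21) and Ly6e by 0.14 ± 0.26 (interval -0.40 to 0.68). These intervals do not show the groups to be alike. EdgeR on recovered reads also called 0 of the 6, as did DESeq2, where 155 and 665 of all 14278 genes passed.

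The joint effect was also set against the sum of the single effects (on the log2 scale, the combination's difference from untreated less those of beta-glucan and of anti-CD40). Ly6c2 stood at -2.12 ± 0.65 and Ly6i at -2.58 ± 0.77, as descriptions. Ly6c1 stood at -0.95 ± 0.32 and did not pass (adjusted p = 0.328), nor did Ly6a at -0.18 ± 0.30 (adjusted p = 0.914), Ly6e at 0.57 ± 0.37 (adjusted p = 0.745) or Ly6d at 0.08 ± 0.65 (adjusted p = 0.983). In this contrast 0.021% of all genes passed, or 3 of 14278, where 1194 had an unadjusted p under 0.05; leaving out 1 tumour gave 0 to 12 genes.

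Within a tumour the ratio of 2 genes does not depend on the size factor. Reads of Ly6c2 over Ly6c1 ran from 0.607 to 3.56 in combination tumours (median 2.16), from 0.365 to 1.79 in anti-CD40 tumours (1.08), from 0.0926 to 0.395 in beta-glucan tumours (0.159) and from 0.0236 to 0.0750 in untreated tumours (0.0307). Reads of Ly6i over Ly6a ran from 0.102 to 0.177 (median 0.141), from 0.0281 to 0.183 (0.0464), from 0.0112 to 0.0890 (0.0309) and from 0.00079 to 0.0041 (0.00253) in the same order. For both ratios each treated group lay wholly above the untreated group, and the combination and anti-CD40 groups overlapped. The ratios compare tumours and not the levels of 2 genes, and are a description, since they hold the 2 genes that were chosen for their rise.

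**Figure D3:**
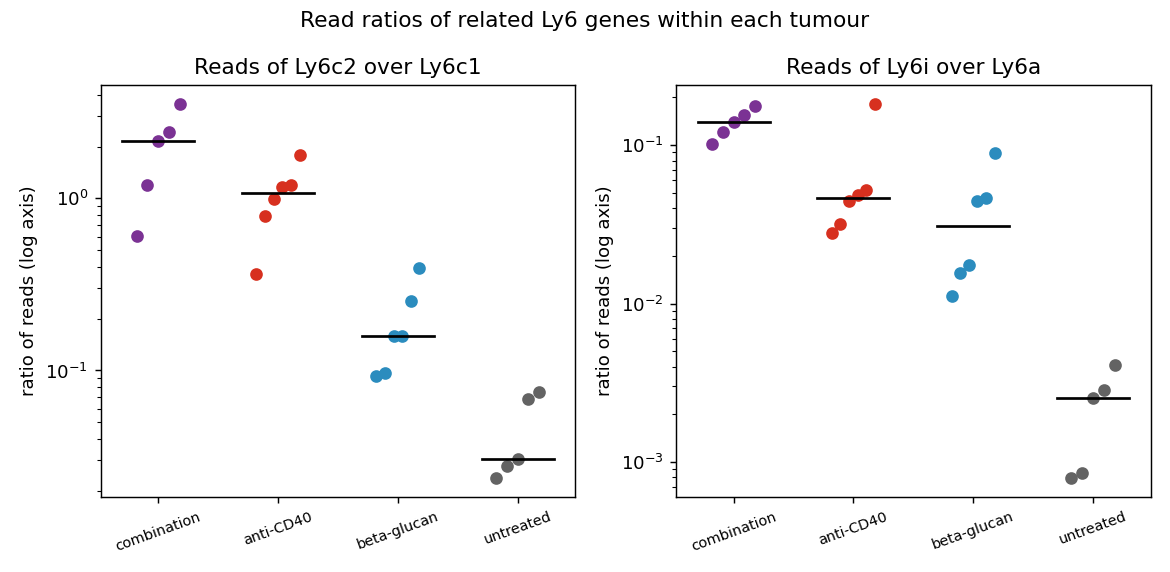
Reads of Ly6c2 over Ly6c1 (left) and of Ly6i over Ly6a (right) in each tumour, on log axes, with a line at the group median for combination (n = 5), anti-CD40 (n = 6), beta-glucan (n = 6) and untreated (n = 5) tumours. The medians of Ly6c2 over Ly6c1 are 2.16, 1.08, 0.159 and 0.0307 in that order, and no treated tumour overlaps an untreated one in either panel.

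Among tumours of the same group, Ly6a and Ly6c1 varied together. Deviations from the group mean (log2) were correlated over the 22 tumours for 45 relations, with two-sided permutation tests within groups. The relations were the 15 pairs of the 6 genes and each gene with the mean level of 5 marker lists. The lists were acinar, monocyte, interferon-gamma response, endothelial and epithelial genes. Ly6a and Ly6c1 had Pearson's r = 0.857 and Spearman's rho = 0.866 (both p = 1e-05, the smallest 100000 permutations can give, adjusted p = 0.00045). Without the 2 tumours farthest from the median of Ly6c1, r was 0.788. For a gene with a list, the 2 tumours left out were those farthest from the median of the list. Ly6c1 and its near-copy Ly6c2 had r = 0.236 (permutation p = 0.356, adjusted p = 0.55; rho = 0.102), and Ly6c2 with Ly6i r = 0.473 (adjusted p = 0.168). Ly6i followed the mean of 24 interferon-gamma response genes, with r = 0.672 (permutation p = 0.002, adjusted p = 0.0423), rho = 0.680 (adjusted p = 0.0632) and r = 0.598 without the 2 farthest tumours. Anti-CD40 tumour 5, the farthest in Ly6i at a deviation of 2.06, was not among those 2. Ly6i ran opposite to 12 epithelial genes, with r = -0.638 (permutation p = 0.00282, adjusted p = 0.0423), rho = -0.566 (adjusted p = 0.133) and r = -0.505 without the 2 farthest. No other relation of the 45 passed by Pearson's r. Those include Ly6c2 with the endothelial list (r = 0.505) and with the epithelial list (r = -0.473), both at adjusted p = 0.113.

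**Figure D4:**
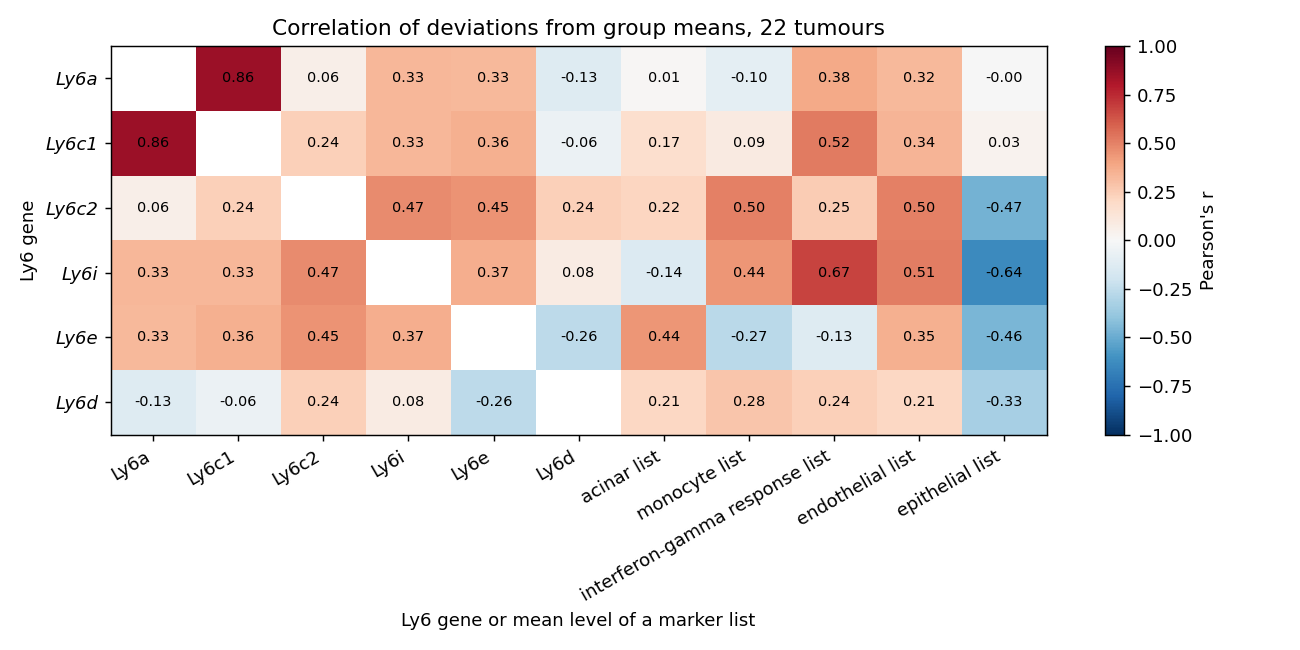
Pearson's r of deviations from group means over 22 tumours, for each of the 6 genes (rows) with the other genes and with the mean level of 5 marker lists (columns). The pair Ly6a and Ly6c1 stands at 0.86, Ly6i with the interferon-gamma list at 0.67 and Ly6i with the epithelial list at -0.64.

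Of all genes with a mean of at least 30, the ones that deviated most like Ly6i were Samhd1, a restriction factor of retroviruses (r = 0.917), Gbp5, an interferon-induced GTPase (r = 0.892), and AW112010 (r = 0.876), picked from 11626 candidates over 22 tumours and so with no test. For Ly6c2 they were Mef2c (r = 0.856), Cilp (r = 0.850) and Gria3 (r = 0.850), and for Ly6a Slfn2 (r = 0.858), Tgm2 (r = 0.856) and Pkm (r = 0.846). For Ly6e they were Ppfia4 (r = 0.928), Luc7l3 (r = 0.923) and Yipf1 (r = 0.916). For Ly6c1 they were Chl1 (r = 0.775), 4930503L19Rik (r = 0.774) and Olfm1 (r = 0.769), and for Ly6d Abcg2 (r = 0.778), Tmem219 (r = 0.740) and Clec14a (r = 0.731). Without the 2 tumours farthest from the median of Ly6c1, r was 0.577 for Chl1.

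Within the chromosome 15 interval 23 genes are annotated, 10 were in the table and 7 were tested, the 6 genes and Ly6k. Ly6k, a family member of the testis with a role in sperm function, lies between Ly6d and Ly6e and averaged 42.0 ± 27.0 in combination, 18.5 ± 12.2 in anti-CD40, 7.41 ± 4.30 in beta-glucan and 3.89 ± 8.71 in untreated tumours (SD). It rose by 4.31 ± 0.94 in the combination (adjusted p = 0.00098) and by 2.83 ± 0.90 with anti-CD40 (adjusted p = 0.0295). It had 0 reads in 4 of 5 untreated tumours, so the size depends on the pseudocount. An antisense gene, on the opposite strand, overlaps it. Whether reads were counted by strand is not given in the sources used here.

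**Figure D5:**
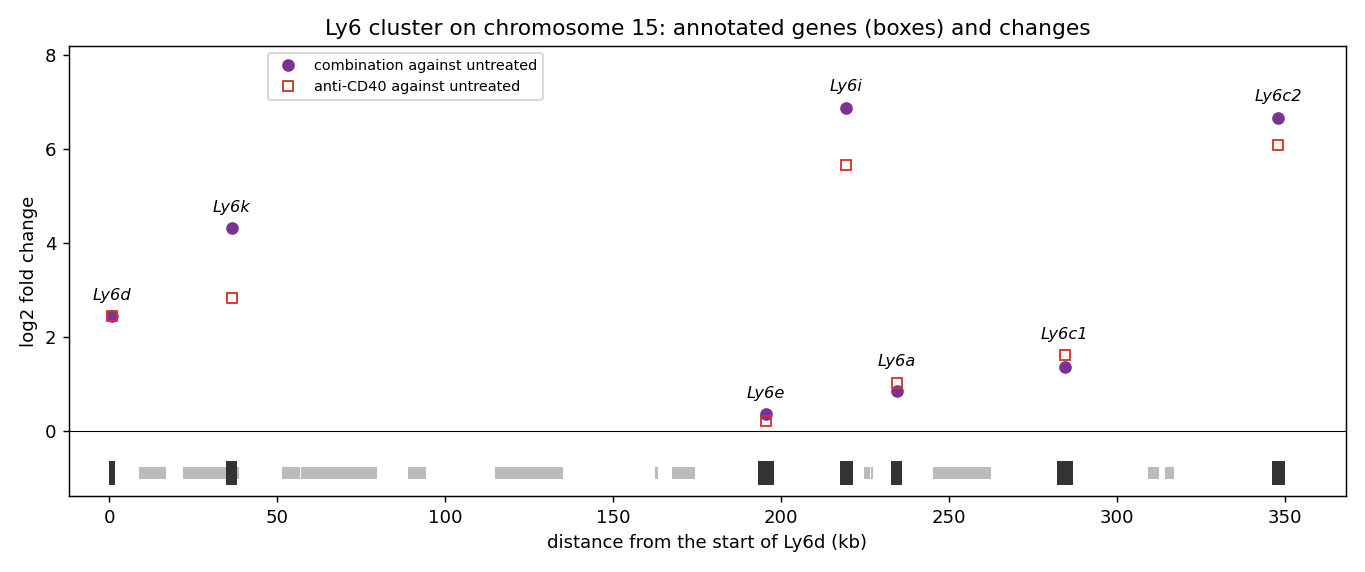
The 23 annotated genes between Ly6d and Ly6c2 (boxes, dark where tested) by distance from the start of Ly6d in kb, with the log2 fold change of the 7 tested genes in the combination (filled circles) and anti-CD40 (open squares) against untreated tumours. The largest changes, Ly6c2 at 6.67 and Ly6i at 6.88, stand apart from each other, with Ly6a at 0.83 and Ly6c1 at 1.35 between them.

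Beyond the 6, 42 genes of the wider Ly6/uPAR family were listed, 28 were in the table and 11 were tested. For the combination against untreated 5 were higher and 1 lower, for anti-CD40 3 and 1, for beta-glucan 2 and 0, for the combination against beta-glucan 1 and 0, and for the combination against anti-CD40 0 and 0. Over all genes 18.2% were higher and 15.8% lower in the combination, 11% and 7.56% with anti-CD40, 5.09% and 1.32% with beta-glucan, 6.49% and 7.61% in the combination against beta-glucan, and 0.658% and 0.826% against anti-CD40. Ly6g, the neutrophil antigen, had 0 reads in all 5 untreated tumours. It averaged 98.0 ± 49.5 in combination, 24.3 ± 21.8 in anti-CD40 and 17.3 ± 11.4 in beta-glucan tumours (SD), and had 0 reads in anti-CD40 tumour 6. Against a floor of 3 reads over the untreated group, these arithmetic means are at least 169, 42.0 and 29.8 times as high. By the log2 measure Ly6g rose less, by 6.44 ± 0.85, 3.90 ± 0.81 and 3.79 ± 0.81 in the same order. These are 86.84-fold, 14.96-fold and 13.87-fold (adjusted p = 3.54e-06, 0.00143 and 0.00482). With 0 reads in untreated tumours, both measures depend on the floor or the pseudocount. Ly6g also rose by 2.65 ± 0.81 in the combination against beta-glucan (adjusted p = 0.0296). Cd177, a neutrophil antigen of the same family, had arithmetic means at least 33.2 times the same floor in combination and 19.2 times in beta-glucan tumours. By the log2 measure it rose 18.5-fold and 7.47-fold. With anti-CD40 Cd177 averaged 5.47 ± 5.10 and did not pass (adjusted p = 0.0954).

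Outside the neutrophil antigens 4 more family members beside Ly6k were called. Lynx1, a modulator of nicotinic receptors, rose by 1.09 in the combination (adjusted p = 0.000988) and by 0.67 with anti-CD40 (adjusted p = 0.0426). Cd59a, an inhibitor of the complement membrane attack complex, rose by 0.90 in the combination (adjusted p = 0.0136). Lypd6b was lower, by -3.17 ± 0.90 in the combination (adjusted p = 0.0082), at a mean normalized count of 1.21 ± 1.40 against 18.2 in untreated tumours. Plaur, the urokinase receptor, was lower by a log2 fold change of -1.04 in anti-CD40 tumours (adjusted p = 0.0404), and stood at -0.91 in the combination (adjusted p = 0.0603).

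The cell types and responses in which these genes are known were counted from marker lists, whose genes also changed. The lists were put together with results of these data in view, so the counts describe and do not support. They are to be read beside the shares of all genes that were higher, 18.2% in the combination, 11% with anti-CD40 and 5.09% with beta-glucan, or lower, 15.8%, 7.56% and 1.32%. Of 16 monocyte genes 11 rose in the combination, 8 with anti-CD40 and 5 with beta-glucan, with median log2 fold changes of 2.09, 1.02 and 0.98. Lyz2 (lysozyme) rose by 3.73 in the combination and 2.86 with anti-CD40. The summed level of the 16 was 32294 to 51035, 19901 to 42291 and 21333 to 27246, against 9581 to 37120 in untreated tumours, with none at 0. In the same order 11, 4 and 8 of 13 neutrophil genes rose, with medians of 3.07, 1.08 and 2.55; 2 fell with anti-CD40. Within groups Ly6c2 and the monocyte list had r = 0.504 (permutation p = 0.0201, adjusted p = 0.129), which did not pass. Spearman's rho was 0.458 (adjusted p = 0.267), and r was 0.335 without the 2 farthest tumours. The part of monocyte number in the change of Ly6c2 between groups was not tested.

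Of 24 interferon-gamma response genes 20 rose in the combination, 19 with anti-CD40 and 13 with beta-glucan, with medians of 2.27, 2.36 and 1.11. Cxcl9, a T cell attracting chemokine, rose by 3.49, 3.57 and 1.68, and Serpina3g by 4.15, 3.89 and 2.34. Of 23 type I interferon response genes 14, 9 and 0 rose, with medians of 1.14, 0.78 and 0.10. Over all genes the medians were -0.01, 0.00 and 0.02 in these 3 comparisons. The summed level of the interferon-gamma list was 24648 to 47393 in combination, 29277 to 58642 in anti-CD40, 7844 to 26729 in beta-glucan and 4990 to 10839 in untreated tumours.

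Lymphocyte and endothelial genes, known sources of Ly6a, Ly6c1 and Ly6d, moved as well. Of 8 B cell genes 8 rose in the combination, 8 with anti-CD40 and 3 with beta-glucan, with medians of 5.40, 5.24 and 1.94. Their summed level, with Cd79a, which was not tested and had 0 reads in all combination and all anti-CD40 tumours, was 1391 to 3208, 1361 to 3293 and 164 to 892, against 44.9 to 225 in untreated tumours. Of 14 T and cytotoxic cell genes 13, 12 and 1 rose, with medians of 3.25, 3.06 and 0.55. Of 14 endothelial genes 10, 5 and 2 rose, among them Plvap by 2.09, 1.55 and 1.05. Of 8 genes of stratified epithelium, the other known source of Ly6d, 6 fell in the combination, 2 with anti-CD40 and 1 with beta-glucan, Krt14 by -5.81 in the combination and -4.34 with anti-CD40. Of 12 epithelial genes 12, 9 and 2 fell, and of 12 fibroblast genes 11, 5 and 6 rose. Of 8 plasma cell genes 6, 5 and 3 rose, with 1 lower in each of the first 2 and medians of 4.23, 3.10 and 0.76. Among them Jchain rose by 7.34, 6.50 and 2.74. Of 22 acinar genes 7, 4 and 0 rose. Other list genes at 0 throughout a group were Gzmk in combination, beta-glucan and untreated tumours, Sprr3 in combination and untreated tumours, Trp63 and Tnfrsf17 in untreated tumours, Amy2a5 in beta-glucan and untreated tumours, and Prss3 and Cd177 in untreated tumours. Beyond the within-group correlations above, the part of any of these cell types in the changes of the 6 genes was not tested.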

How the data were processed

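The deposited values are normalized counts, a signal made by the authors from the reads of each tumour and its size factor, for 17966 genes in 22 tumours. Per the labels' protocols, RNA came from serial 5 µm sections of fixed tissue, and 100 ng went into QuantSeq forward libraries, which read the 3′ ends of transcripts. STAR, mm10 and DESeq2 are named in the submitters' processing notes as aligner, build and normalization. The version of each, like the read counter, annotation and strandedness, is not given in the sources used here. In each tumour 100% of the values were whole multiples of 1 step within 0.001 reads, so reads were recovered by dividing by it; columns without a sample numbered 0. Of 50 pairs of tumours within a group, none agreed within sampling noise (chi-square per degree of freedom at least 12.7).

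The 6 genes and all lists were chosen with earlier results of these data known. The 14278 genes that reached 10 in 5 or more tumours were fitted with limma 3.58.1 in R 4.3.3 on log2(value + 1), with 4 group means and trended, robust variance; p-values were two-sided and Benjamini-Hochberg adjusted within each contrast, threshold 0.05. The fit was also run on simulated data. Named genes were the 6, every called Ly6/uPAR family gene, up to 2 genes a list with the smallest p, and the 3 genes deviating most like each of the 6; not every list gene so selected is printed. EdgeR 4.0.16 and DESeq2 1.42.0 on recovered reads, pseudocounts, filters, scalings, an acinar covariate, a replicate block and leaving out each tumour were alternatives. Without the tumours above 30% acinar reads, and a block that takes the number in the column names, were chosen after seeing the data. Of the symbols, 17699 matched the reference's gene names; 23 names had become dates and 2 occurred more than once.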

Additional observations from a re-analysis of the deposited data

Results flagged for a closer look

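In 7 of the 24 gene and group combinations, 1 tumour stood apart from the rest of its group (Dixon's test at 95%). The test takes the gap to the nearest neighbour relative to the range. For normal, independent values chance alone does so in about 1 group in 20. The values were normalized counts without log2, and the same tumours recur across genes, so that rate need not hold here. Untreated tumour 6 was such a tumour for Ly6c2, at 68.9 against at most 22.4 in the other 4, and for Ly6e, at 31723 against at most 15743. Anti-CD40 tumour 5 was one for Ly6i, at 2131, the next being 816, and for Ly6d, at 737, the next being 470. Combination tumour 4 was one for Ly6e, at 33832, the next being 17790. Beta-glucan tumour 5 was one for Ly6d, at 288, the next being 121, and beta-glucan tumour 2 was the lowest for Ly6e, at 9518, the next being 10966. Acinar reads made up 15.8% of untreated tumour 6, 2.44% of anti-CD40 tumour 5, 31.3% of combination tumour 4, 7.72% of beta-glucan tumour 5 and 0.963% of beta-glucan tumour 2; their part in these values was not tested.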

How the results depend on the processing

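Against untreated tumours Ly6c2 and Ly6i were higher in all 3 treated groups, and Ly6d in anti-CD40 and combination tumours, under every alternative run. Under equal totals the number of the 6 genes called was 3 for anti-CD40, 3 for the combination against untreated and 3 against beta-glucan. In those comparisons 2410, 3644 and 1188 of all 14348 genes tested passed. Leaving acinar genes out of the totals, 3 of the 6 were called against beta-glucan, where 1750 of 14575 genes passed. DESeq2 called 1 in the interaction, among the genes given there as descriptions, where 98 of all 14278 genes passed. It called 6 against beta-glucan, as did the fit of only the 2 groups, where 2561 and 2630 of all genes passed. The share of calls that were higher was 59.3% for anti-CD40, 53.6% for the combination, 46% against beta-glucan and 79.4% for beta-glucan, and 22.3%, 33.2%, 11.1% and 93.7% under equal totals.

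Leaving out 1 tumour gave 2 to 3 of the 6 genes called for beta-glucan, 5 for anti-CD40, 5 to 6 for the combination, 4 to 6 against beta-glucan, 0 to 1 against anti-CD40 and 0 in the interaction. The values that changed sign did not pass the test as reported. Leaving out 1 tumour, they were -0.14 to 0.15 for Ly6a and -0.45 to 0.22 for Ly6d with beta-glucan, -0.067 to 0.26 for Ly6e and -0.16 to 0.19 for Ly6d in the combination against anti-CD40, and -0.22 to 0.45 for Ly6d in the interaction. Ly6a with beta-glucan was 0.046 under equal totals, 0.0084 with TMM, 0.053 with totals without acinar genes, 0.028 with the replicate block and 0.029 with the block by column names. Ly6e with anti-CD40 was -0.37 under equal totals, -0.13 with the acinar covariate and -0.019 without the tumours above 30% acinar reads, and in the combination -0.10 under equal totals. Equal totals shift all genes alike: relative to the median of all genes Ly6e stood at 0.18 with anti-CD40 and 0.35 in the combination, against 0.21 and 0.36 as reported. In the combination against anti-CD40 Ly6d was 0.00028 with a pseudocount of 8, 0.13 under equal totals, 0.019 with totals without acinar genes, 0.0034 with the acinar covariate, 0.25 with the block by column names, 0.015 with edgeR and 0.030 with DESeq2, and Ly6c2 was -0.13 without the tumours above 30% acinar reads. Ly6d in the interaction was -0.085 with the replicate block and -0.33 without those tumours. The cause of the other changes was not tested.

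Genes called over the whole table moved by more than 1.5 times in some alternatives: for beta-glucan 916, against 252 under equal totals; for anti-CD40 2650, against 1699 with only the 2 groups and 1576 with the acinar covariate; for the combination against beta-glucan 2013, against 1188 under equal totals and 987 without the tumours above 30% acinar reads. For the combination against anti-CD40 it was 212, against 8 under equal totals, 32 with totals without acinar genes, 6 with only the 2 groups, 330 with the block by column names, 665 with DESeq2 and 15 without those tumours. For the interaction it was 3, against 0, 0, 1, 8, 9 and 98 with a pseudocount of 8, equal totals, totals without acinar genes, the replicate block, the block by column names and DESeq2. Leaving out 1 tumour gave 507 to 1098 for beta-glucan, with 600, 581, 610 and 507 without untreated tumour 1 or 5 or beta-glucan tumour 3 or 5. It gave 28 to 852 for the combination against anti-CD40, where 13 of the 22 tumours moved the count by over 1.5 times, and 0 to 12 for the interaction, where 15 did.

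Replicate numbers are shared across groups, but same-numbered tumours did not consistently deviate together. Over 30 pairs r ran from -0.27 to 0.34 (median 0.028) and exceeded 0.1 in 8, so the numbers were not taken to pair tumours. Every pair of tumours numbered 1 had a positive r, from 0.014 to 0.34. Pairs of unlike number were not computed for comparison, so a pairing is not excluded. With the replicate block the number of the 6 genes called was 2 for beta-glucan, 5 for anti-CD40, 5 for the combination, 5 against beta-glucan, 0 against anti-CD40 and 0 in the interaction. Of all 14278 genes 969, 2683, 4790, 2387, 223 and 8 were called in the same order. The combination tumour titled 5 has a column numbered 6. With the number of the column names the block gave 4 against beta-glucan, without Ly6e (adjusted p = 0.0582), where 2136 of all genes were called. Depth limits Ly6i and Ly6c2 most in untreated tumours, where 4 to 23 and 13 to 55 reads stand behind a value.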
